A study of Arabidopsis thaliana with 9 samples.

Results

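Induction of the transcription factor gene DOF6 was examined in seeds of DOF6ioex, an Arabidopsis thaliana line that overexpresses DOF6 when given estradiol. The tested seeds had been imbibed for 8 h in 50 µM β-estradiol (3 libraries), and the seeds they were set against had spent the same 8 h in mock solution, which the sample labels give as water (3 libraries). All 6 libraries come from freshly harvested seeds of this 1 genotype, and the construct is therefore present in both groups. The series holds 9 libraries; the 3 not compared here carry the rgl2-13 label as well. A gene was a member where 3 or more of the 6 libraries had it at 1 FPKM or above, which gave 13376 of the 22004 genes in the tables. FPKM, the unit of the tables, is a fragment count scaled by transcript length and by the mapped fragments of the library. Levels are therefore set side by side with transcript length and depth taken out. Differences in RNA composition between libraries are not taken out, and the counts of called genes below changed with further scaling. The labels do not name the inducible system, its promoter, the number of independent lines or a solvent for the estradiol. No seeds without the construct were given estradiol, so for every gene below an effect of estradiol or of its solvent cannot be told apart from an effect of DOF6.

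DOF6 belongs to the DOF family of plant transcription factors, which bind DNA through a single zinc finger at sites with the core AAAG, and it is known as a repressor of seed germination that acts with the DELLA protein RGL2. A freshly harvested seed is dormant, and during imbibition its respiration restarts inside coats that slow the entry of oxygen. In plants low oxygen is sensed through ERF-VII transcription factors, which PCO enzymes mark for breakdown while oxygen is present. When these factors persist they switch on a core set of genes that includes the enzymes of ethanol fermentation. Sulfate, another supply a seedling depends on, is reduced through APS reductase, and plants short of sulfur raise a separate set of genes that includes LSU and SDI genes.

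The FPKM total per library was 737221 to 751842, and a depth of 27400000 to 29600000 fragments per library was estimated from the steps between low values, with the 2 groups overlapping. Transcripts of seed storage and oil body proteins, which mark seed tissue, took 16.1% to 16.7% of the total in estradiol and 15.8% to 19.9% in mock. Of 5 endosperm markers, EPR1 held 37193 to 50203 FPKM in estradiol and 42103 to 54200 FPKM in mock, and ICE1 also passed the filter, while the other 3 stayed at 0.07 FPKM or below. Of 8 seed coat markers only MUM4 passed the filter. Fewer cells of a type and less RNA per cell cannot be told apart in such whole-seed RNA. On the first principal component, which held 38.7% of the variance, the estradiol libraries lay at -11.1, -9.11 and -6.24, and the mock libraries at 12.3, 16.1 and -1.89. Mock replicate 3 thus stood nearer to the estradiol libraries than the other mock libraries did. The labels do not say whether replicates are separate seed batches, so p-values measure the spread between these samples, which may be technical.

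DOF6 (AT3G45610) itself stood at 33.73, 32.05 and 36.00 FPKM in estradiol, against 0.64, 0.86 and 0.41 FPKM in mock. The lowest estradiol library was above the highest mock library by a wide margin, and the log2 difference of 4.42 ± 0.11 (SE) had an adjusted p of 4.53e-11 in limma. DOF6 passed the filter on low values through the estradiol libraries alone, and fragments of the construct and of the resident gene cannot be told apart in its FPKM. RGL2 (AT3G03450), the DELLA gene, had 8.02, 7.57 and 10.2 FPKM in estradiol and 10.4, 13.1 and 8.86 FPKM in mock. These ranges overlapped, and the adjusted p was 0.474. GATA12 (AT5G25830), a GATA factor gene that has been placed downstream of RGL2 and DOF6 in dormancy, was listed at 0.01 to 0.02 FPKM in both groups and was not tested. Of the other 11 tested DOF family genes none passed the test.

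With log2(FPKM + 1) values and a Benjamini-Hochberg adjusted p under 0.05, limma called 105 of the 13376 genes, 0.785% of them. Of these, 34 genes (0.254% of all tested) were higher in estradiol and 71 (0.531%) were lower. The filter was passed through the estradiol libraries alone by 3 of the 34, and through the mock libraries alone by 6 of the 71. Over all tested genes these numbers were 22 and 10, and such genes have separate groups by construction. With median-of-ratios scaling the split was 10 higher (0.0748%) and 58 lower (0.434%). All 105 had 3 libraries of 1 group above the 3 of the other, as did 15.0% of all genes tested. Most changes were small, with 22 genes past 2-fold on the log2(FPKM + 1) scale, 4 higher and 18 lower. The count rested on single libraries: without mock replicate 3 it was 212 (92 higher, 0.688%, and 120 lower, 0.897%), without mock replicate 2 it was 62 (15 higher, 47 lower), and without estradiol replicate 2 it was 62 (12 higher, 50 lower). The fit on all 9 libraries, in which the libraries labelled rgl2-13 share the estimate of spread, called 3 genes higher (0.0224%) and 17 lower (0.127%), and without the filter on low values 2 were higher and 12 lower.

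**Figure D1:**
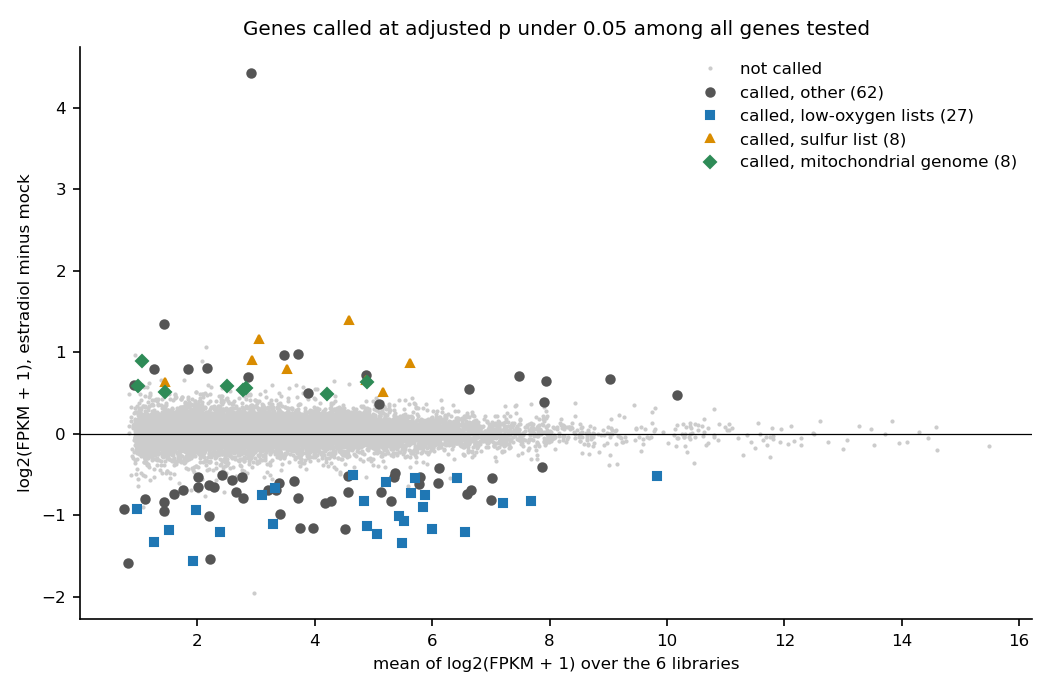
Each point is a gene, with its mean log2(FPKM + 1) over the 6 libraries on the x axis and its log2(FPKM + 1) difference, estradiol minus mock, on the y axis. Coloured points are the 105 called genes, of which 27 belong to the low-oxygen lists (blue squares, all below 0), 8 to the sulfur list (orange triangles, all above 0) and 8 to the mitochondrial genome (green diamonds, all above 0); DOF6 is the point at 4.42.

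The gene lists used here and below were chosen with earlier results of these data known, so their shares are descriptions. Among them, the lists of genes known to respond to low oxygen held the most falls. Of 69 genes on 3 such lists, 59 were tested, and 27 of these (45.8%) fell in estradiol while none rose, beside the 0.531% of all genes that fell. These 27 made up 38.0% of the 71 falls. In the fit, 47 of the 59 were lower (79.7%, beside 37.3% of all genes) and 12 higher, with a median log2 difference of -0.43, where the median over all tested genes was 0.04. Among the 27, the ratio of mean FPKM in estradiol to mock ran between 0.183 and 0.702, with a median of 0.499. The count of 27 includes AT5G42200, at 0.183, and AT5G10040, which passed the filter through the mock libraries alone and so had to be lower. In sum they held 1425, 1745 and 1603 FPKM in estradiol, against 2696, 2699 and 2524 FPKM in mock. Each of the 27 had separate groups, so the estradiol sums had to be below the mock sums. The 67 listed genes present in the tables, called or not, summed to 4988 to 5447 FPKM in estradiol and 6401 to 6500 FPKM in mock. In the sum of the 27, mock replicate 3 lay with the other mock libraries, while in several single genes it lay nearer to estradiol. Leaving out any 1 of the 6 libraries gave 23 to 28 falls on these lists, and 6 of the 27 genes, AT5G42200 among them, were called under each of the 13 alternative fits. NIP2;1, an aquaporin family gene of these lists with 9.22, 7.93 and 6.85 FPKM in estradiol and 5.25, 4.87 and 8.53 FPKM in mock, was called higher without mock replicate 3 (adjusted p = 0.0404; 0.490 with all libraries). The fit on all 9 libraries called 12 of them lower, and the fit without the filter 8.

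On the list of fermentation and related carbon metabolism 3 of 9 tested genes fell (33.3%) and none rose, beside 0.531% of all genes that fell. PDC1 (AT4G33070), for pyruvate decarboxylase, which turns pyruvate into acetaldehyde, had 33.7, 45.9 and 46.8 FPKM in estradiol, against 97.8, 95.4 and 91.6 FPKM in mock. Every estradiol library was below every mock library, and PDC1 fell by 1.17 ± 0.11 (SE) on the log2 scale (limma adjusted p = 0.000112). HB1 (AT2G16060), for the non-symbiotic haemoglobin that consumes nitric oxide under low oxygen, had 23.3, 37.1 and 30.0 FPKM in estradiol and 59.5, 61.9 and 59.7 FPKM in mock. Its mock libraries were close together and its estradiol libraries spread out below them, with a log2 difference of -1.003 ± 0.13 and an adjusted p of 0.00103. AlaAT1 (AT1G17290), for alanine aminotransferase, which forms the alanine that builds up without oxygen, averaged 70.3 ± 8.85 FPKM in estradiol and 103 ± 5.38 FPKM in mock (SD, n = 3 each). It fell by 0.55 ± 0.09 on the log2 scale (adjusted p = 0.0128).

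The other 6 tested genes of this list did not pass. ADH1, for the alcohol dehydrogenase that makes ethanol, had 415, 479 and 463 FPKM in estradiol and 634, 566 and 572 FPKM in mock. These groups did not overlap either, at a log2 difference of -0.38 ± 0.09 and an adjusted p of 0.0678. PDC2, a further pyruvate decarboxylase gene, had 164, 168 and 167 FPKM in estradiol and 154, 156 and 155 FPKM in mock (adjusted p = 0.633). Its estradiol libraries lay just above its mock libraries. The list of 13 had 4 members that were absent from the tables or under the filter, among them the sucrose synthase genes SUS1 and SUS4.

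**Figure D2:**
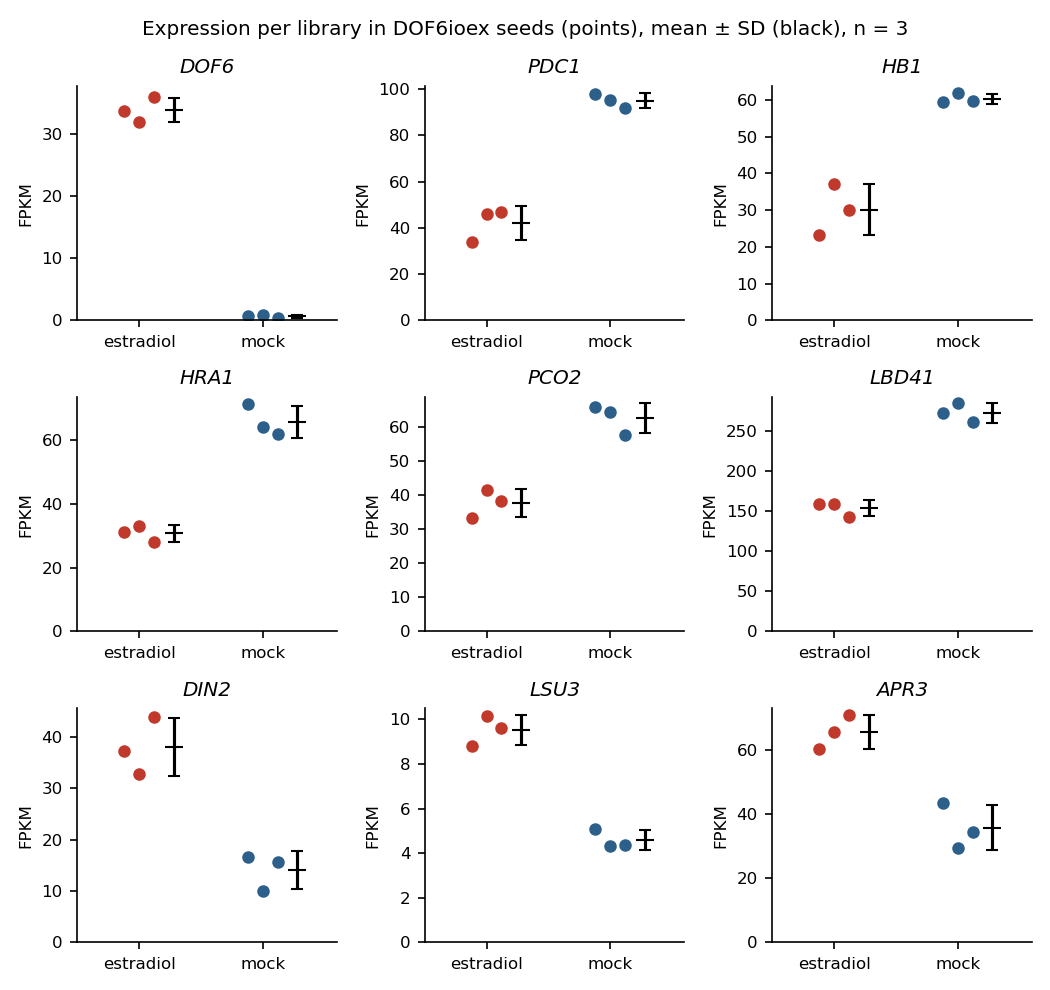
Each panel shows 1 gene, with FPKM per library on the y axis from 0, estradiol libraries in red on the left, mock libraries in blue on the right, and the mean ± SD of each group in black (n = 3 each). In all 9 panels the groups do not overlap, as in every called gene: DOF6, DIN2, LSU3 and APR3 are higher in estradiol, and PDC1, HB1, HRA1, PCO2 and LBD41 are lower.

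On the list of oxygen sensing and ERF-VII factors, 2 of 16 tested genes fell (12.5%, beside 0.531% of all genes) and none rose. The median log2 difference was -0.06. HRA1 (AT3G10040), a trihelix factor that is induced by low oxygen and restrains the ERF-VII factor RAP2.12, had 31.3, 33.0 and 27.9 FPKM in estradiol, against 71.3, 63.9 and 61.8 FPKM in mock. The groups were far apart, with a log2 difference of -1.07 ± 0.09 (adjusted p = 5.09e-05). PCO2 (AT5G39890), for a plant cysteine oxidase that is itself raised by low oxygen, had 33.3, 41.6 and 38.4 FPKM in estradiol and 65.9, 64.4 and 57.5 FPKM in mock, a log2 difference of -0.72 ± 0.09 (adjusted p = 0.00134). Its relative PCO1 averaged 64.9 ± 9.23 FPKM in estradiol and 95.1 ± 16.8 FPKM in mock (SD, n = 3 each), with an adjusted p of 0.0983; without mock replicate 3 it was 0.00719. The ERF-VII genes named here did not pass. RAP2.12 had a mean of 180 ± 18.2 FPKM in estradiol and 180 ± 5.48 FPKM in mock, and RAP2.2 one of 138 ± 15.8 FPKM in estradiol and 150 ± 16.1 FPKM in mock (SD, n = 3 each). ERF73, an ERF-VII gene that low oxygen raises, had 4.5, 4.74 and 6.15 FPKM in estradiol and 4.07, 3.20 and 3.91 FPKM in mock (adjusted p = 0.285). Its estradiol libraries all lay above its mock libraries, opposite to the falls. ERF71, another ERF-VII gene, had 5.51, 7.01 and 5.24 FPKM in estradiol and 9.30, 7.02 and 5.73 FPKM in mock, which overlap (limma adjusted p = 0.561).

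Of 34 further core low-oxygen genes tested, 22 fell (64.7%, beside 0.531% of all genes) and none rose. The median log2 difference was -0.70. LBD41 (AT3G02550), a LOB-domain transcription factor gene, averaged 154 ± 10.01 FPKM in estradiol and 273 ± 12.2 FPKM in mock (SD, n = 3 each), a log2 difference of -0.82 ± 0.08 (adjusted p = 0.000112). Its relative LBD40 (AT1G67100), which is on none of the lists, also fell, with means of 96.2 ± 9.62 FPKM in estradiol and 171 ± 30.2 FPKM in mock (adjusted p = 0.00364). FTM1 (AT1G43800), for a stearoyl-ACP desaturase, had 0.82, 1.34 and 1.49 FPKM in estradiol, against 5.94, 5.83 and 4.73 FPKM in mock. It had the largest fall of the 27 on the log2(FPKM + 1) scale, -1.56 ± 0.13 (adjusted p = 5.09e-05). By the ratio of mean FPKM it stood at 0.221, and AT5G42200, a RING finger gene, was lower at 0.183. AT5G42200 passed the filter through the mock libraries alone, so it had to be lower in estradiol.

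Genes with signalling roles were among the 27. CML38 (AT1G76650), a calmodulin-like protein gene, had 4.76, 7.01 and 5.39 FPKM in estradiol and 15.1, 11.5 and 13.4 FPKM in mock. RBOHD (AT5G47910), for an NADPH oxidase that makes reactive oxygen at the plasma membrane, averaged 29.2 ± 1.297 FPKM in estradiol and 44.6 ± 3.08 FPKM in mock (SD, n = 3 each). For both the groups were separate, with an adjusted p in limma of 0.000508 for CML38 and 0.0022 for RBOHD. The most abundant of the set, AT4G27450, for a protein with YGL and LRDR motifs, had 646, 860 and 789 FPKM in estradiol and 1096, 1083 and 1091 FPKM in mock (adjusted p = 0.0303). It passed under 4 of the 13 alternative fits, the fewest among the 27, together with AT4G39675.

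Several of the steepest falls were in genes without a named product. AT1G33055 had 22.9, 20.9 and 19.0 FPKM in estradiol and 55.2, 52.5 and 43.3 FPKM in mock. AT2G17850, annotated as a rhodanese family protein, had 2.43, 2.53 and 2.39 FPKM in estradiol and 7.41, 6.98 and 6.49 FPKM in mock. AT1G12805 had 53.4, 68.3 and 62.5 FPKM in estradiol and 154, 157 and 118 FPKM in mock. In each the groups were separate, at log2 differences in that order of -1.22 ± 0.10, -1.20 ± 0.09 and -1.20 ± 0.12, with adjusted p no higher than 0.000112. AT5G66985 had 17.9, 19.9 and 19.3 FPKM in estradiol and 48.2, 49.1 and 33.1 FPKM in mock (adjusted p = 0.000406). AT4G24110 was more abundant, with 95.6, 123 and 109 FPKM in estradiol and 206, 214 and 172 FPKM in mock, and AT3G23170 had 48.1, 42.2 and 33.4 FPKM in estradiol and 82.2, 75.1 and 74.3 FPKM in mock. Both had an adjusted p of 0.000893 with no overlap of the groups. AT5G42200 and AT5G10040 passed the filter through the mock libraries alone, and a gene that passes in this way has to differ. The genes of these lists that did not pass include ETR2, an ethylene receptor gene, with an adjusted p of 0.0651, and AT3G10020, which stood at 1262, 1320 and 1263 FPKM in estradiol and at 1084, 1212 and 1261 FPKM in mock.

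AT4G10270, annotated as a wound-responsive family protein, had 29.5, 24.9 and 27.9 FPKM in estradiol, against 78.0, 79.7 and 56.2 FPKM in mock. It fell by 1.33 ± 0.12 on the log2 scale (adjusted p = 8.56e-05). The next protein-coding gene upstream on the chromosome, AT4G10265, of the same annotated family but on no list, had 14.2, 13.0 and 13.3 FPKM in estradiol and 25.9, 23.3 and 24.8 FPKM in mock, and fell as well (log2 -0.83 ± 0.08, adjusted p = 0.000154). AT4G10270 overlaps AT4G05775 over 377 bases and AT4G10280 over 86 bases, both annotated on the other strand. No source used here says whether the counting used strand, so reads of these genes cannot be told apart where they overlap. Of the 27 genes, 6 overlap another annotated gene.

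**Figure D3:**
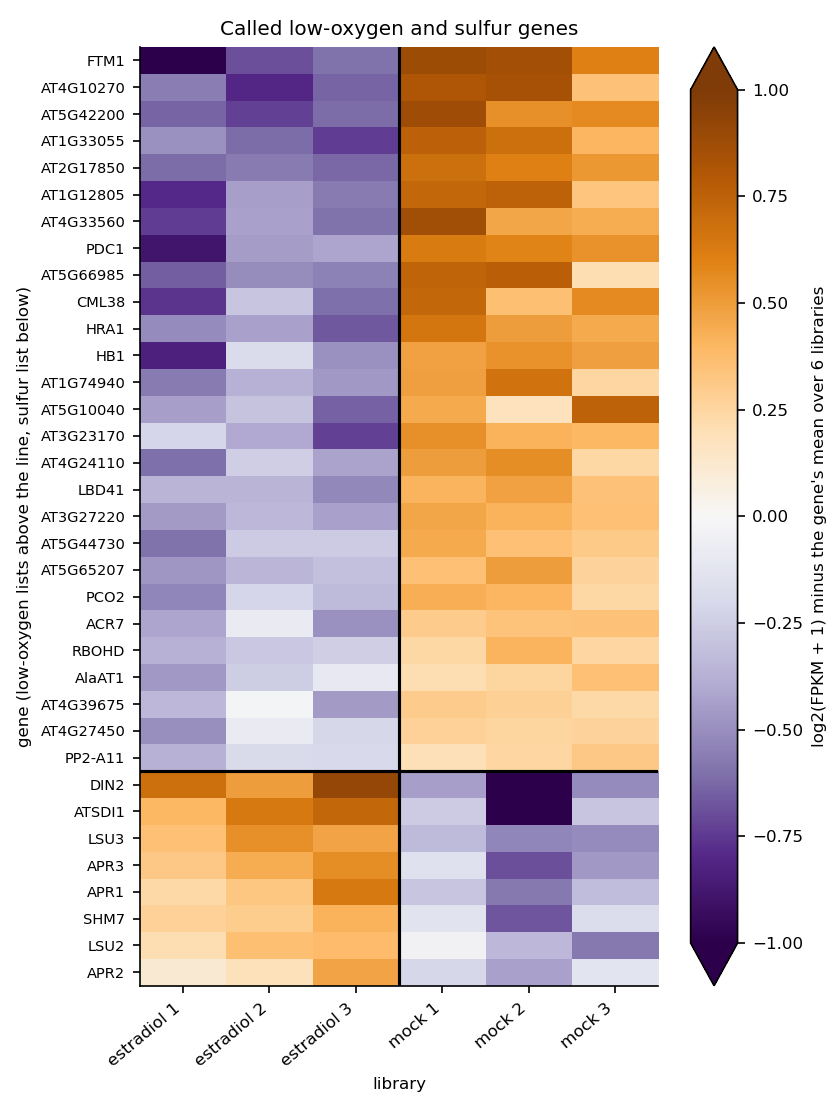
Rows are the 27 low-oxygen genes and the 8 sulfur genes that were called, columns are the 6 libraries with estradiol on the left, and colour is log2(FPKM + 1) minus the gene's mean over the 6 libraries, cut at -1 and 1. In the upper block every estradiol library is below every mock library, and in the lower block the order is the opposite, as every called gene has separate groups. Mock replicate 3 is paler than the other mock libraries in several upper rows.

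The 250 bases upstream of the annotated gene start were read for these genes from the RefSeq TAIR10.1 sequence. The deposited files give no coordinates and name no build; for 91.4% of the 11978 genes with a single transcript length the length in the files equalled that in TAIR10.1. The core AAAG, on either strand, was present upstream of 27 of the 27 fallen low-oxygen genes, with a median of 3 matches each, and upstream of 97.9% of the 13242 tested genes that could be read, with a median of 4 matches. The upstream regions of PDC1 (chr4:15954804-15955053, minus strand) and HRA1 (chr3:3098418-3098667, minus strand) are shown. These genes stand for the fermentation list and for the list of oxygen sensing and ERF-VII factors. They are printed 5′ to 3′ towards the gene, with each AAAG of the printed strand, or CTTT where the match is on the other strand, in capitals.
PDC1: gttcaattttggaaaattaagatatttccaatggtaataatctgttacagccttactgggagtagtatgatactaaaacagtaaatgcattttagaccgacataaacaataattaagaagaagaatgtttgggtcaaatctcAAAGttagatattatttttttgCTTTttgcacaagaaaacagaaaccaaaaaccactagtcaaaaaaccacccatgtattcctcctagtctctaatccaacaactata
HRA1: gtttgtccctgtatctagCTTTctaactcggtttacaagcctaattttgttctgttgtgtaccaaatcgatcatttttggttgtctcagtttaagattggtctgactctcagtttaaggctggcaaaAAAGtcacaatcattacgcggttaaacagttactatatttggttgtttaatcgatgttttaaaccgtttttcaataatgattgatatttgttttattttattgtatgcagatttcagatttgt
Both carry 2 matches, below the median over all genes.

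An element described for promoters that respond to low oxygen, AAACCA followed by any 3 bases and then GC, was searched for on both strands. Its free bases can hold part of an AAAG core. It was found upstream of 1 of the 27 genes (3.7%) and of 127 of the 13242 genes (0.959%). That gene was AT4G10270 (chr4:6374484-6374733, plus strand), with a pair of matches that begin 230 and 100 bases before its start, in capitals here.
AT4G10270: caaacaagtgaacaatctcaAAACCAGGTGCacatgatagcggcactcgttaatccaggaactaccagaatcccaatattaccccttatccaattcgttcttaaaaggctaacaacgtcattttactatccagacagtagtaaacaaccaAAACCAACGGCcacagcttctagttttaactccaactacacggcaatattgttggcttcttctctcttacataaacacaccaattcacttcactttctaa
A match is a run of letters only, and its absence in the other 26 regions covers these 250 bases and this spelling.

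Among the rises, the list with the most called genes was that of sulfur limitation and sulfate assimilation. Of 20 genes on this list 14 were tested, and 8 of the 14 (57.1%) rose in estradiol while none fell, beside 0.254% of all genes tested that rose. All 14 were fitted higher, beside 62.7% of all genes, with a median log2 difference of 0.60. The 8 genes together held 203, 211 and 243 FPKM in estradiol, against 137, 96.9 and 126 FPKM in mock. These sums could not overlap, since each of the 8 had separate groups. The 17 listed genes present in the tables, called or not, summed to 262 to 313 FPKM in estradiol and 147 to 193 FPKM in mock. Mock replicate 2 was the lowest library for most of the 8 genes. The count was 4 without estradiol replicate 2, 4 without estradiol replicate 3 and 9 without mock replicate 1, and 4 with median-of-ratios scaling. The fit on all 9 libraries called 2, LSU3 and DIN2, and the fit without the filter 1.

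DIN2 (AT3G60140), a beta-glucosidase gene known to respond to darkness, sugar shortage and sulfur shortage, had 37.3, 32.8 and 43.9 FPKM in estradiol, against 16.6, 9.91 and 15.7 FPKM in mock. It rose by a log2 difference of 1.39 ± 0.16 (SE; limma adjusted p = 0.000406). Of the other 16 tested genes on the list of dark and sugar-starvation genes none passed, and that list had a median log2 difference of 0.00. ATSDI1 (AT5G48850), whose protein holds back the formation of glucosinolates, had 9.95, 11.9 and 12.7 FPKM in estradiol and 5.93, 2.61 and 5.83 FPKM in mock (log2 1.17 ± 0.20, adjusted p = 0.0113). LSU3 (AT3G49570), named for its response to low sulfur, had 8.79, 10.2 and 9.61 FPKM in estradiol and 5.10, 4.32 and 4.37 FPKM in mock (log2 0.91 ± 0.10, adjusted p = 0.000293). LSU3 was called under all 13 alternative fits, ATSDI1 under 6. LSU2 was at the edge, with means of 2.4 ± 0.218 FPKM in estradiol and 1.22 ± 0.418 FPKM in mock (SD, n = 3 each) and an adjusted p of 0.0499.

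The 3 genes for APS reductase, the enzyme that turns activated sulfate into sulfite, rose together. APR3 (AT4G21990) had 60.1, 65.6 and 70.8 FPKM in estradiol and 43.3, 29.4 and 34.5 FPKM in mock (log2 0.87 ± 0.12, adjusted p = 0.0022). APR1 (AT4G04610) had 12.5, 13.4 and 16.9 FPKM in estradiol and 8.45, 6.72 and 8.18 FPKM in mock (log2 0.79 ± 0.12, adjusted p = 0.00411). APR2 (AT1G62180) had 37.6, 39.6 and 48.5 FPKM in estradiol and 30.0, 25.5 and 31.7 FPKM in mock (log2 0.51 ± 0.11, adjusted p = 0.0469). Each was separate between the groups, and APR2 passed under 3 alternative fits only. APR2 overlaps genes on the other strand over 225 and 782 bases.

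Further along sulfur metabolism, SHM7 (AT1G36370), for a serine hydroxymethyltransferase, averaged 35.8 ± 2.07 FPKM in estradiol and 22.6 ± 4.63 FPKM in mock (adjusted p = 0.0236). MTO3 (AT3G17390), for S-adenosylmethionine synthetase and on no list, rose as well, with 115, 117 and 126 FPKM in estradiol and 96.6, 72.6 and 75.7 FPKM in mock (adjusted p = 0.02). It overlaps a gene on the other strand over 891 bases. SHM7 passed under 5 of the 13 alternative fits and MTO3 under 4. The sulfate transporter gene SULTR1;2 had 4.09, 4.41 and 5.84 FPKM in estradiol and 2.86, 2.5 and 3.25 FPKM in mock, separate groups at an adjusted p of 0.0594. EIL3, the gene of the SLIM1 factor that directs the response to sulfur shortage, averaged 14.1 ± 1.53 FPKM in estradiol and 13.1 ± 0.240 FPKM in mock (SD, n = 3 each; adjusted p = 0.729). BGLU28, a beta-glucosidase gene linked to glucosinolate breakdown, was under the filter, with 1.96, 0.98 and 1.68 FPKM in estradiol and 0.11, 0.01 and 0.09 FPKM in mock. GGCT2;1, for an enzyme of glutathione breakdown, was also under it, at 0.28, 0.42 and 0.47 FPKM in estradiol and 0.03, 0.01 and 0.03 FPKM in mock.

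The pentamer GAGAC, the core of a sulfur-response element, was searched for in the same 250 bases on both strands, and it can share its first base with an AAAG core. It was found upstream of 2 of the 8 risen sulfur genes and of 25% of all 13242 regions read. The 2 regions, of ATSDI1 (chr5:19807854-19808103, minus strand) and DIN2 (chr3:22216290-22216539, plus strand), are printed with the match in capitals, as GTCTC where it lies on the other strand. The match begins 23 bases before the gene start in ATSDI1 and 55 bases before it in DIN2.
ATSDI1: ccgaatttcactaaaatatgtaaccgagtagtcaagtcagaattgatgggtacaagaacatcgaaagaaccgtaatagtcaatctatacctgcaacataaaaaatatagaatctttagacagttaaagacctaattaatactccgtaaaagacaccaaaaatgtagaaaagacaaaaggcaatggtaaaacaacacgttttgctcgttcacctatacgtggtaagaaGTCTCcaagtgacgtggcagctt
DIN2: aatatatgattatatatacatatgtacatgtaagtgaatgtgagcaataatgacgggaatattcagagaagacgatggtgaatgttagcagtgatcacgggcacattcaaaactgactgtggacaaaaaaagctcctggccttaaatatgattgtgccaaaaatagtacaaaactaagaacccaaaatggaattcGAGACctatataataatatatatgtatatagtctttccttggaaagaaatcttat
The share among the 8, 25%, is that of all genes.

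A list of genes that respond to foreign chemicals was examined because estradiol is a small molecule given from outside. Of 21 tested genes on this list 1 rose and none fell, where 0.254% of all genes rose. In the fit 19 were higher in estradiol (90.5%, beside 62.7% of all genes), and the median log2 difference was 0.18. The gene that passed was UGT74E2 (AT1G05680), for a glycosyltransferase that acts on indole-3-butyric acid, with 201, 232 and 255 FPKM in estradiol and 156, 131 and 132 FPKM in mock. Its groups were separate, with a log2 difference of 0.71 ± 0.10 and an adjusted p of 0.00289. OPR1, for an oxophytodienoate reductase, had 21.9, 23.4 and 18.0 FPKM in estradiol and 14.7, 13.4 and 16.3 FPKM in mock (adjusted p = 0.0596). ABCB4 (AT2G47000), an auxin transporter gene on no list, rose with 15.2, 17.9 and 19.6 FPKM in estradiol and 9.90, 7.51 and 7.87 FPKM in mock (adjusted p = 0.000569).

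AOX1A (AT3G22370), for the alternative oxidase of the respiratory chain, had 3.83, 5.62 and 5.39 FPKM in estradiol and 3.18, 1.96 and 2.12 FPKM in mock. It was the 1 of 6 tested genes of the mitochondrial retrograde response that rose (log2 0.80 ± 0.15, adjusted p = 0.0211), under 4 of the 13 alternative fits. The share of all genes that rose was 0.254%. Of 16 heat shock genes none passed, while 15 were fitted higher (93.8%, beside 62.7% of all genes), with a median log2 difference of 0.19. HSP101, for the chaperone that frees clumped proteins, had 242, 235 and 220 FPKM in estradiol and 168, 165 and 211 FPKM in mock (adjusted p = 0.15). Mock replicate 3 was the mock library nearest to estradiol here, and without it HSP101 and HSP90.1 passed.

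Transcripts of the mitochondrial genome formed a further group, chosen after its values had been seen. Of the 56 tested mitochondrial genes 8 rose, where 0.254% of all genes rose. All 56 were fitted higher in estradiol, beside 62.7% of all genes, with a median log2 difference of 0.41. Mitochondrial transcripts together took 0.0785%, 0.0704% and 0.0630% of the FPKM total in estradiol, against 0.0519%, 0.0425% and 0.0568% in mock. The groups were separate, with mock replicate 3 nearest to estradiol. ATMG01360 had 20.4, 22.8 and 19.7 FPKM in estradiol and 14.3, 14.5 and 15.0 FPKM in mock, and ATMG00090 had 40.9, 39.1 and 29.3 FPKM in estradiol and 22.4, 19.4 and 27.4 FPKM in mock. AT2G07727, a gene on chromosome 2 whose transcript is 100% identical to mitochondrial sequence, rose too (adjusted p = 0.0433), and its reads cannot be told apart from mitochondrial ones. With median-of-ratios scaling 54 of the 56 were fitted higher and 1 passed, in the fit on all 9 libraries none, and without mock replicate 3 there were 16. RNA quality per library is not given in the labels, and its part in this shift was not tested.

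**Figure D4:**
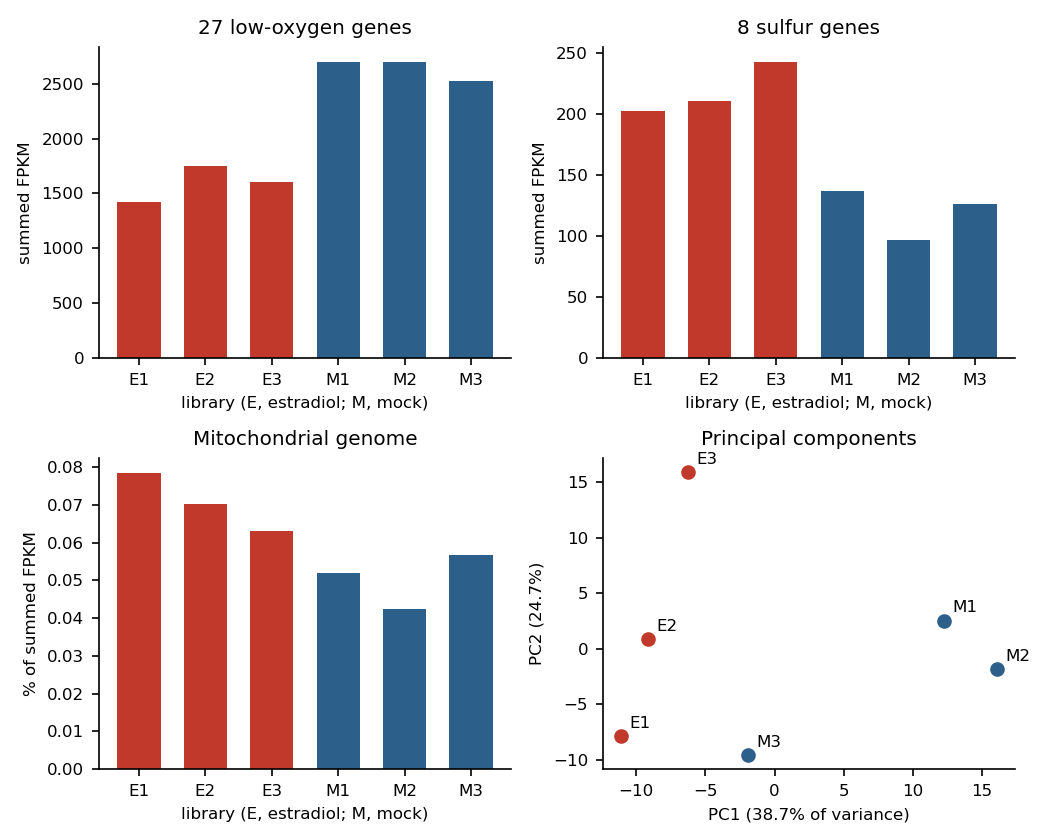
Bars give, per library, the summed FPKM of the 27 fallen low-oxygen genes and of the 8 risen sulfur genes and the share of the FPKM total from the mitochondrial genome in percent, with estradiol libraries in red (E1 to E3) left of mock libraries in blue (M1 to M3); the last panel plots the first and second principal components of all tested genes. All 3 measures are separate between the groups. For the 27 and the 8 genes this was fixed in advance, since every called gene has separate groups, and the mitochondrial share was chosen after its values had been seen. M3 lies between the estradiol and the other mock libraries on the first component.

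Cell wall loosening genes have products that act when the embryo pushes through the endosperm. Of 11 tested 2 fell and none rose, where 0.531% of all genes fell. In the fit 9 were lower (81.8%, beside 37.3% of all genes), and the median log2 difference was -0.25. The expansin gene EXPA10 (AT1G26770) had 3.59, 4.64 and 4.46 FPKM in estradiol and 9.10, 7.99 and 6.98 FPKM in mock (log2 -0.79 ± 0.11, adjusted p = 0.00363). EXPA1 (AT1G69530) had 5.09, 6.83 and 6.97 FPKM in estradiol and 11.2, 12.8 and 8.61 FPKM in mock (log2 -0.69 ± 0.14, adjusted p = 0.0321). EXPA1 passed under 3 of the 13 alternative fits and EXPA10 under 10. Wall genes outside the list, found after the values were seen, fell too: DGR2 (AT5G25460), of the DUF642 family of wall proteins, had 6.97, 10.3 and 11.8 FPKM in estradiol and 25.3, 31.5 and 13.7 FPKM in mock (adjusted p = 0.0362), with 1195 bases that overlap a gene on the other strand. Its relative DGR1 had 0.97, 0.98 and 0.91 FPKM in estradiol and 3.05, 2.76 and 2.47 FPKM in mock; it passed the filter through the mock libraries alone and so had to differ. CWLP (AT3G22120), for a proline-rich protein that links wall and membrane, had 16.2, 14.4 and 12.5 FPKM in estradiol and 46.5, 43.5 and 18.3 FPKM in mock (adjusted p = 0.0499), with mock replicate 3 close to estradiol. CWLP overlaps a gene on the other strand over 1372 bases and was called under 2 of the 13 alternative fits. GAE1 (AT4G30440), for an epimerase that makes a pectin precursor, averaged 26.8 ± 5.96 FPKM in estradiol and 44.1 ± 3.78 FPKM in mock (SD, n = 3 each, adjusted p = 0.0148). GAE1 passed under 5 of the 13 alternative fits and DGR2 under 3.

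Gibberellin, the hormone that promotes germination, is made by GA20 and GA3 oxidases. Of 7 tested genes of its metabolism 1 fell, where 0.531% of all genes fell. This gene, GA20OX3 (AT5G07200), had 6.96, 7.42 and 9.86 FPKM in estradiol and 22.9, 26.4 and 11.1 FPKM in mock (log2 -1.15 ± 0.23, adjusted p = 0.0327). Mock replicate 3 was close to the estradiol libraries, and the call held under 3 of the 13 alternative fits; without that library the adjusted p was 9.46e-05. GA3OX1, for the last step to active gibberellin, had 1.22, 0.83 and 2.34 FPKM in estradiol and 3.23, 2.90 and 1.55 FPKM in mock, which overlap (adjusted p = 0.403). None of 8 tested genes of gibberellin signalling passed. Their median log2 difference was -0.14, and the DELLA gene GAI averaged 9.57 ± 1.40 FPKM in estradiol and 12.5 ± 2.23 FPKM in mock (SD, n = 3 each; adjusted p = 0.363).

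Abscisic acid (ABA), the hormone that maintains dormancy, is broken down by CYP707A hydroxylases. CYP707A2 (AT2G29090), the main such gene of imbibed seeds, had 38.1, 37.4 and 37.6 FPKM in estradiol and 29.1, 28.5 and 29.3 FPKM in mock. The libraries of each group were close together, and the small log2 difference of 0.37 ± 0.07 passed with an adjusted p of 0.0333, under 2 of the 13 alternative fits. Of 8 tested genes of ABA synthesis and breakdown only CYP707A2 passed, where 0.254% of all genes rose. Among 23 tested genes of ABA perception and signalling PYL2 (AT2G26040), an ABA receptor gene, fell, with 6.34, 7.67 and 6.82 FPKM in estradiol and 14.5, 12.2 and 9.19 FPKM in mock (adjusted p = 0.028). It was the only gene of this list to pass, where 0.531% of all genes fell, and it did so under 3 of the 13 alternative fits. None of 13 tested dormancy and germination regulators passed. DOG1, the main dormancy gene of natural variation, had 17.9, 18.4 and 18.4 FPKM in estradiol and 19.9, 16.0 and 17.2 FPKM in mock (adjusted p = 0.876), and ABI5, an ABA-response factor gene, averaged 284 ± 1.29 FPKM in estradiol and 273 ± 20.3 FPKM in mock (SD, n = 3 each; adjusted p = 0.811).

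**Figure D5:**
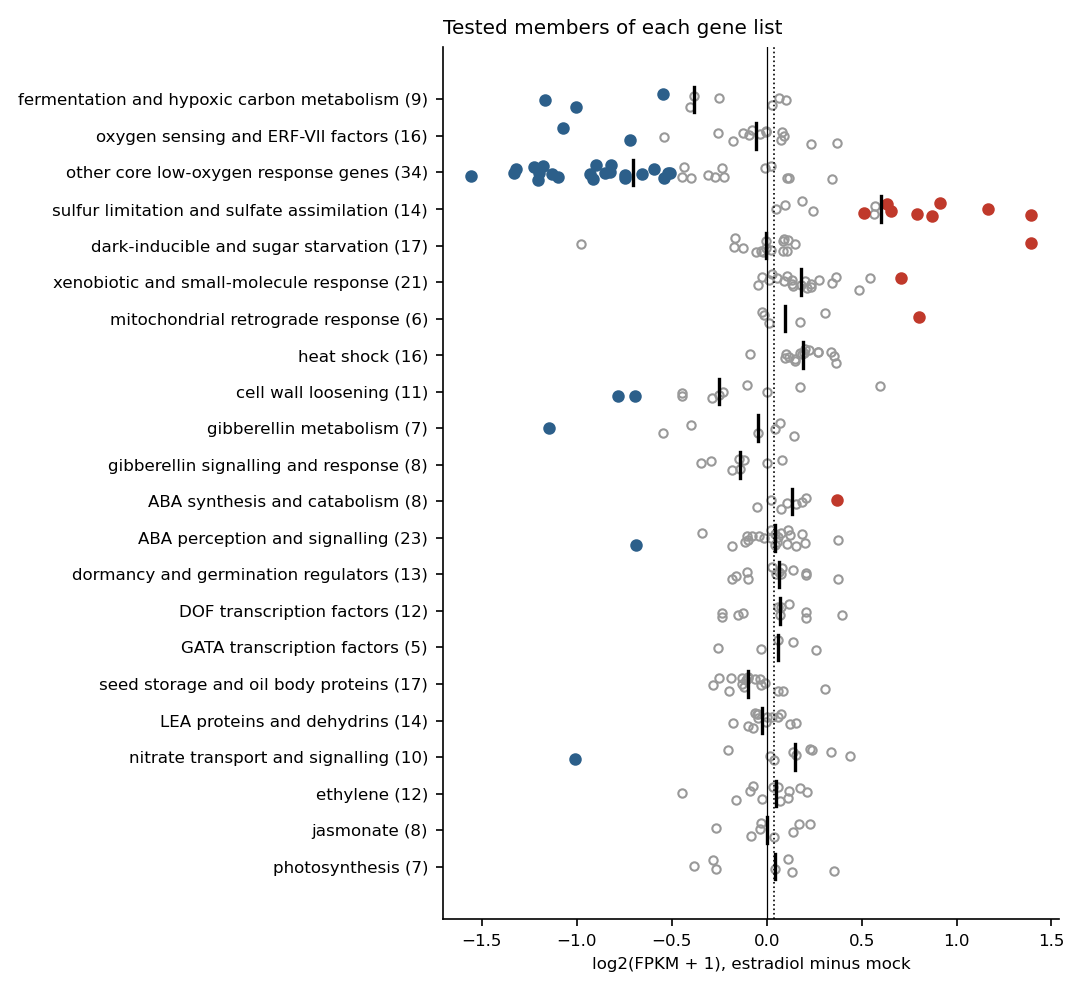
Each point is a tested member of a gene list (number tested in brackets), placed by its log2(FPKM + 1) difference, estradiol minus mock; filled points passed the test (red higher, blue lower), open points did not, black bars are list medians and the dotted line is the median of all genes, 0.04. DOF6, at 4.42, is left out of its list; the low-oxygen lists hold 27 filled points on the left, the sulfur list 8 on the right, and no other list more than 2.

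Nitrate genes gave 1 fall among 10 tested, where 0.531% of all genes fell. In the fit 8 were higher (80%, beside 62.7% of all genes), and the median log2 difference was 0.15. The fall was in NRT2.6 (AT3G45060), of the high-affinity nitrate transporter family, with 2.27, 2.0 and 2.46 FPKM in estradiol and 4.88, 5.57 and 6.16 FPKM in mock (log2 -1.01 ± 0.11, adjusted p = 0.000293). The lists of ethylene (12 tested), jasmonate (8), photosynthesis (7), GATA factors (5), LEA proteins and dehydrins (14) and seed storage and oil body proteins (17) had no member that passed. Their median log2 differences were 0.05, 0.00, 0.04, 0.06, -0.02 and -0.10 in that order. Mock replicate 1 held the most storage transcript, as in SESA1, an albumin gene at 2271, 2298 and 2355 FPKM in estradiol and 4444, 2222 and 2106 FPKM in mock (adjusted p = 0.685).

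Outside the lists, further genes changed. C/VIF1 (AT1G47960), for an inhibitor of invertases whose gene overlaps another on its strand over 797 bases, fell, with 5.54, 7.41 and 6.78 FPKM in estradiol and 15.2, 14.9 and 12.0 FPKM in mock (log2 -0.99 ± 0.12, adjusted p = 0.000569). ASP2 (AT5G19550), for cytosolic aspartate aminotransferase, averaged 106 ± 8.82 FPKM in estradiol and 155 ± 5.68 FPKM in mock (SD, n = 3 each; adjusted p = 0.00457). SIP2 (AT3G57520), for a galactosidase named from seed imbibition, rose, with 281, 261 and 279 FPKM in estradiol and 208, 192 and 225 FPKM in mock (adjusted p = 0.0433). SIP2 passed under 2 of the 13 alternative fits. MES10 (AT3G50440), for a methyl esterase family protein, averaged 9.10 ± 1.45 FPKM in estradiol and 16.4 ± 1.72 FPKM in mock (SD, n = 3 each; adjusted p = 0.00312). The transcription factor gene bZIP2 (AT2G18160) had 4.56, 3.75 and 3.51 FPKM in estradiol and 7.36, 6.83 and 6.92 FPKM in mock (adjusted p = 0.00361). The groups of both were separate. RPL3B (AT1G61580), for a cytosolic ribosomal protein, had 10.3, 14.3 and 20.9 FPKM in estradiol and 6.92, 7.94 and 6.13 FPKM in mock (adjusted p = 0.0211). RPL3B passed under 5 of the 13 alternative fits. RPS10 (AT3G22300), a ribosomal protein gene, had 0.67, 2.02 and 3.05 FPKM in estradiol and 8.43, 10.3 and 3.72 FPKM in mock (log2 -1.54 ± 0.31, adjusted p = 0.0342). Both groups were spread widely in RPS10, and it passed under 2 alternative fits. SHD and BIP3, for chaperones of the endoplasmic reticulum and on no list, fell, with SHD (AT4G24190) at 30.6, 29.0 and 39.7 FPKM in estradiol and 47.0, 47.6 and 49.0 FPKM in mock, and BIP3 (AT1G09080) at 2.25, 2.26 and 2.52 FPKM in estradiol and 3.47, 3.57 and 4.44 FPKM in mock. Their adjusted p was 0.0304 for SHD and 0.0415 for BIP3, each under 5 of the 13 alternative fits.

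AT4G00170, for a protein of the VAMP-associated family, rose, with 30.4, 41.9 and 38.9 FPKM in estradiol and 20.6, 24.1 and 21.0 FPKM in mock (adjusted p = 0.00551). Abundant rises included 3 genes known by locus number, AT2G01008, annotated as a maternal effect embryo arrest protein, and AT2G16586 and AT3G41762, with no named product. AT2G01008 had 1544, 1329 and 1198 FPKM in estradiol and 949, 1014 and 955 FPKM in mock, AT2G16586 had 758, 685 and 546 FPKM in estradiol and 405, 379 and 454 FPKM in mock, and AT3G41762 had 362, 294 and 268 FPKM in estradiol and 202, 190 and 192 FPKM in mock. In all 3 the groups were separate, and estradiol replicate 1 was the highest library. The adjusted p was 0.0445 for AT2G01008, 0.0112 for AT2G16586 and 0.00582 for AT3G41762. With median-of-ratios scaling none of them passed, at limma adjusted p of 0.253, 0.117 and 0.0827 in that order. AT2G01008 overlaps a gene on its strand over 369 bases, and AT3G41762 overlaps genes on the other strand over 162, 308 and 92 bases. AT2G41231, an uncharacterised gene, was listed at the lowest value of 0.01 FPKM in all 3 estradiol libraries and had 2.29, 2.63 and 1.34 FPKM in mock. It passed the filter through the mock libraries alone and overlaps ORS1 on the other strand over 406 bases.

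In the authors' deposited table of genes past their own threshold, which sets 1 estradiol library against the mock library of the same number, 228 genes are listed. Of these 10 are listed in all 3 pairs and 38 in 2 pairs, and 24 of them carry opposite signs between pairs. The authors' deposited table shares 11 genes with the 105 called here, among them DOF6 and AT5G42200 in 3 pairs and FTM1 in 2. Most of the 105 are not in it. BGLU28 (AT2G44460), of the sulfur list and under the filter here, is listed there in all 3 pairs with the same sign.

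In the 3 libraries labelled rgl2-13 DOF6ioex, also given estradiol, DOF6 stood at 52.3, 21.4 and 27.5 FPKM. The 27 low-oxygen genes summed to 2398, 1552 and 1787 FPKM there, beside 1425, 1745 and 1603 FPKM in DOF6ioex estradiol seeds and 2696, 2699 and 2524 FPKM in DOF6ioex mock seeds. The 8 sulfur genes summed to 313, 195 and 210 FPKM there, beside 203, 211 and 243 FPKM in DOF6ioex estradiol seeds and 137, 96.9 and 126 FPKM in DOF6ioex mock seeds. The first of the rgl2-13 libraries was the highest of the 3 for DOF6 and for both sums. It was also the highest for UGT74E2, at 368 FPKM beside 183 and 231 FPKM, and for APR3, at 100 FPKM beside 60.0 and 64.5 FPKM. Whether this library differs in scale, and whether that widened the spread in the fit on all 9 libraries, was not tested. The values of the groups stand side by side without a test, since the mock libraries would be shared between the comparisons and no mock library of the rgl2-13 genotype was analysed here.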

How the data were processed

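The submitters' processing notes name HISAT; no version, genome build or quantification tool was found in the sources used here. The authors deposited FPKM per gene, per the file headers, in 3 pairwise tables for this comparison, each of 1 estradiol and 1 mock library, with columns for fold change, FDR and p that were not used. The first library labelled rgl2-13 comes from a table that the authors headed RPKM; its other column equals the FPKM of the same library. The authors deposited a log2 ratio for each gene past their own threshold, used as a list only. Tables were joined on gene ID, a missing gene being set to 0.01 FPKM. limma 3.58.1 (R 4.3.3; linear model per gene, trended variance) tested the 13376 members on log2(FPKM + 1), with 1 mean per group, no covariate and no further scaling. A gene was called where the Benjamini-Hochberg p, adjusted over all members, was under 0.05. This scale understates the change of low genes. The code was tested on simulated data.

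Depth was taken as the fragment number at which most low values of genes up to 1000 bases long were whole within 0.15 (77.9% to 80.4% of them); no interval was computed from it. RefSeq TAIR10.1 supplied symbols for 21685 of 21864 loci; 140 further entries have only a pipeline name. The members and the 24 gene lists were chosen with earlier results of these data known, so no list was tested as a set and list counts are descriptions. The rule for named genes took DOF6, RGL2 and GATA12, up to 20 rises and 20 falls by size of change among called genes with separate groups and a mean of 5 FPKM or above in the higher one, and up to 4 called members of each list (where none was called, the 2 with the smallest p). Others were chosen after their values were seen. The 13 alternative fits were another pseudocount, no filter, 2 scalings, all 9 libraries, no trend, a block by replicate number and each of 6 libraries left out in turn; a 2-fold minimum was counted on the calls as reported and is not among them.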

Additional observations from a re-analysis of the deposited data

How the results depend on the processing

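The log2 difference of DOF6 passed under all 13 alternative fits. None of the other 47 called genes named by the rule changed sign under these fits, and they gave 386 results on the same side of the threshold and 225 that no longer passed. Of 105 called genes (34 higher, 71 lower; 27 low-oxygen falls, 8 sulfur rises), median-of-ratios scaling gave 68 (10 higher; 4 sulfur) and upper quartile scaling 69 (10 higher; 4 sulfur). The fit on all 9 libraries gave 20 (3 higher, 17 lower; 12 low-oxygen, 2 sulfur), and without the filter on low values there were 14 (2 higher, 12 lower; 8 low-oxygen, 1 sulfur). The replicate block gave 28 (4 higher and 24 lower, with 16 low-oxygen falls and 2 sulfur rises). Deviations from the group mean correlated at -0.10, -0.02 and -0.31 between libraries of the same number, and at -0.21 to 0.25 between the others. With 3 libraries per group these values cannot decide whether the numbers mark a pairing, and the labels do not say. A 2-fold minimum gave 22 (4 higher, 18 lower). Leaving out 1 library gave 62 to 212 calls, 12 to 92 higher, 47 to 120 lower, 23 to 28 low-oxygen falls and 4 to 9 sulfur rises. With a pseudocount of 0.1 the sulfur list's median log2 difference was 0.78, against 0.60 with 1. The cause of these shifts was not tested. FPKM without counts limits what can be said of genes under about 1 FPKM, and 3 libraries per group limit the small changes.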
